A study of Mus musculus with 27 samples.

Results

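Mouse thyroid gland organoids (mTGOs) that had received no radiation were compared between day 11 and day 7 of culture, the later step of their growth. The members are the libraries at a dose of 0 Gy of these days, chosen by day and dose in the sample labels and column names, and they number 6 of the 27 libraries of the series, 3 at each day. All organoids came from thyroid glands of C57BL/6 mice aged 8 to 12 weeks, female according to the methods, and were cultured in Matrigel, a basement membrane matrix, in DMEM/F12 medium with EGF, FGF2, the kinase inhibitor Y27632 and B27. The 6 libraries share this medium and received no other treatment. The column names hold 3 culture identifiers (mTG11, mTG12 and mTG14), each present at both days, and values below are given in this order. The other libraries of the series are day 5 organoids at 0 Gy and organoids of days 7 and 11 that were exposed to 2, 4 or 7 Gy of photons after day 5. The irradiated libraries are used here only to place the step from day 7 to day 11. Day 5 libraries serve this purpose too. They also entered the fit of 9 unirradiated libraries that gave the fold changes and p-values of this step.

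Organoids of this kind grow from single cells that divide inside the gel and then build an epithelium. In stratified epithelia, basal cells attached to the matrix by hemidesmosomes divide, and their daughters stop dividing, tie themselves together with desmosomes and finally form a cornified envelope of cross-linked proteins. In mucosal and glandular epithelia, surface cells instead seal their borders with tight junctions, secrete mucins and antimicrobial proteins, or grow motile cilia. The follicular cells of the thyroid make hormone from thyroglobulin with hydrogen peroxide supplied by dual oxidases.

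Polyadenylated RNA was sequenced from its 3′ ends (Smart3SEQ), so that long and short transcripts give reads alike. The deposited values are estimated counts per gene, from which CPM (counts per 1000000 counts of the library) were computed. Library totals ranged from 3772966 to 3886276 counts at day 7 and from 3636887 to 4200268 at day 11, and 3 counts, taken as the smallest detectable amount, stood for 0.714 to 0.825 CPM. Such limits cover counting error only. Genes encoded in mitochondria took 6.21% to 8.16% of the counts at day 7 and 8.56% to 10.4% at day 11. Fold changes are edgeR estimates on the log2 scale for day 11 over day 7 with culture as a block, and a gene is said to rise or fall where the adjusted p of the quasi-likelihood test was under 0.05. These p-values measure the spread between the libraries that is left after the block, with the 3 cultures as replicates. In bulk RNA, fewer cells of a type and less RNA per cell cannot be told apart.

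Of the 18442 genes tested, 2124 (11.5%) rose and 2451 (13.3%) fell from day 7 to day 11, which makes 4575 genes (24.8%) in either direction. The median log2 fold change of all genes was 0.01. In 18.5% of the genes all libraries of day 11 were above all libraries of day 7, and in 18.3% they were all below. The gene lists described next are read against these shares. DESeq2 called 2505 genes in the same comparison.

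The label of the tissue was first checked against genes of the thyroid. Thyroglobulin (Tg), the precursor of the hormone, stood at 1.30, 2.39 and 1.54 CPM in the 3 cultures at day 7 and at 0.238, 6.17 and 0.55 CPM at day 11, so that its levels were near the limit of 3 counts in most libraries. Pax8, a transcription factor of follicular cells, reached 1.37 CPM in 1 library at most. Tshr, Slc5a5, Iyd, Dio1, Slc26a7 and Cdh16 had too few counts to be tested. The defining markers of hormone-making follicular cells were therefore at or near 0 at both days. Nkx2-1, a transcription factor shared by thyroid and lung, was measured at 11.7, 8.75 and 9.26 CPM at day 7 and at 17.9, 17.2 and 21.2 CPM at day 11 (log2 fold change of 0.91 ± 0.18 (SE), adjusted p = 0.00159). Foxe1, the third of these factors, was at 31.8, 20.4 and 34.7 CPM at day 7 and 30.0, 28.7 and 35.2 CPM at day 11, and its groups overlapped (adjusted p = 0.616). The keratins of stratified epithelium were abundant in the same libraries, with 4465, 4839 and 4570 CPM of Krt5 at day 7.

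Within the list of thyroid hormone synthesis, 9 of 16 genes could be tested, of which 3 rose and 2 fell. The largest rise of all genes with a mean of at least 10 CPM belonged to the enzyme pair of hydrogen peroxide production. Duox2, a dual oxidase, was at 1.95, 3.18 and 1.29 CPM at day 7 and at 82.5, 42.6 and 67.8 CPM at day 11. Duoxa2, the maturation factor that carries Duox2 to the cell surface, went from 3.39, 4.24 and 3.86 CPM to 154, 106 and 149 CPM. Every culture showed both rises, and the groups were far apart. The changes were a log2 fold change of 4.85 ± 0.25 (SE), adjusted p = 1.64e-08 for Duox2 and a log2 fold change of 5.13 ± 0.15 (SE), adjusted p = 3.96e-10 for Duoxa2.

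The other pair of the same locus went the opposite way. Duox1 was at 23.1, 24.9 and 23.4 CPM at day 7 and at 5.12, 11.3 and 9.76 CPM at day 11 (log2 fold change of -1.46 ± 0.20 (SE), adjusted p = 8.76e-05). Duoxa1, its maturation factor, was at 42.5, 39.2 and 45.5 CPM and then at 17.6, 24.7 and 15.7 CPM (log2 fold change of -1.14 ± 0.15 (SE), adjusted p = 8.79e-05). No library of day 11 reached the level of a library of day 7 for either gene. Slc5a8, a monocarboxylate transporter of the apical membrane, rose from 13.4, 17.0 and 14.5 CPM to 26.5, 44.6 and 43.7 CPM (log2 fold change of 1.33 ± 0.15 (SE), adjusted p = 1.46e-05). Slc26a4, Dio2 and Tg did not pass the test.

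All 4 dual oxidase genes lie on chromosome 2 within chr2:122109728-122178453 (GRCm39). Duox2 and Duoxa2 point away from each other with start sites 450 bases apart, and Duox1 and Duoxa1 do the same with 1936 bases between their starts. The 3′ ends of Duoxa2 and Duoxa1 overlap on opposite strands over chr2:122132672-122133366, and whether the counting used the strand is not given in the sources used here, so reads of this stretch may be shared between these 2 genes. The promoters of the rising pair are shown because their starts lie so close together (RefSeq, build GRCm38.p6, from 250 bases before to 50 bases after the start of the gene). By RefSeq the starts of this pair lie farther apart than the 450 bases given above, which are from GENCODE. The windows shown therefore need not be set on the starts used above. The motif of AP-1, a family of inducible factors, was searched as TGANTCA on both strands and is in capitals.

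Duoxa2, chr2:122298650-122298949, plus strand: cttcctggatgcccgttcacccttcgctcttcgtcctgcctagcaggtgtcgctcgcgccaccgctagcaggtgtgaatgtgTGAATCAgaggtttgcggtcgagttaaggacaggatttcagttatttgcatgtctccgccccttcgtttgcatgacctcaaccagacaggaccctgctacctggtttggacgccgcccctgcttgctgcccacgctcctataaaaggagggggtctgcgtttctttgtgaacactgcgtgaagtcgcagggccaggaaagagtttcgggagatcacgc
Duox2, chr2:122298178-122298477, minus strand: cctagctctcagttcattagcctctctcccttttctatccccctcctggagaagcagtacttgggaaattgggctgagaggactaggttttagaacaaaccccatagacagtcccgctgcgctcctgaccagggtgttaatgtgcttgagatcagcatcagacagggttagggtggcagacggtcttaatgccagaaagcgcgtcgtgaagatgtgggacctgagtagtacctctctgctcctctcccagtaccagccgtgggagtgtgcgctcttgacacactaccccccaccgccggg

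The window of Duoxa2 held 1 such match and that of Duox2 held 0. Among the 11870 tested genes with a promoter in the table, 7.01% held the motif.

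**Figure D1:**
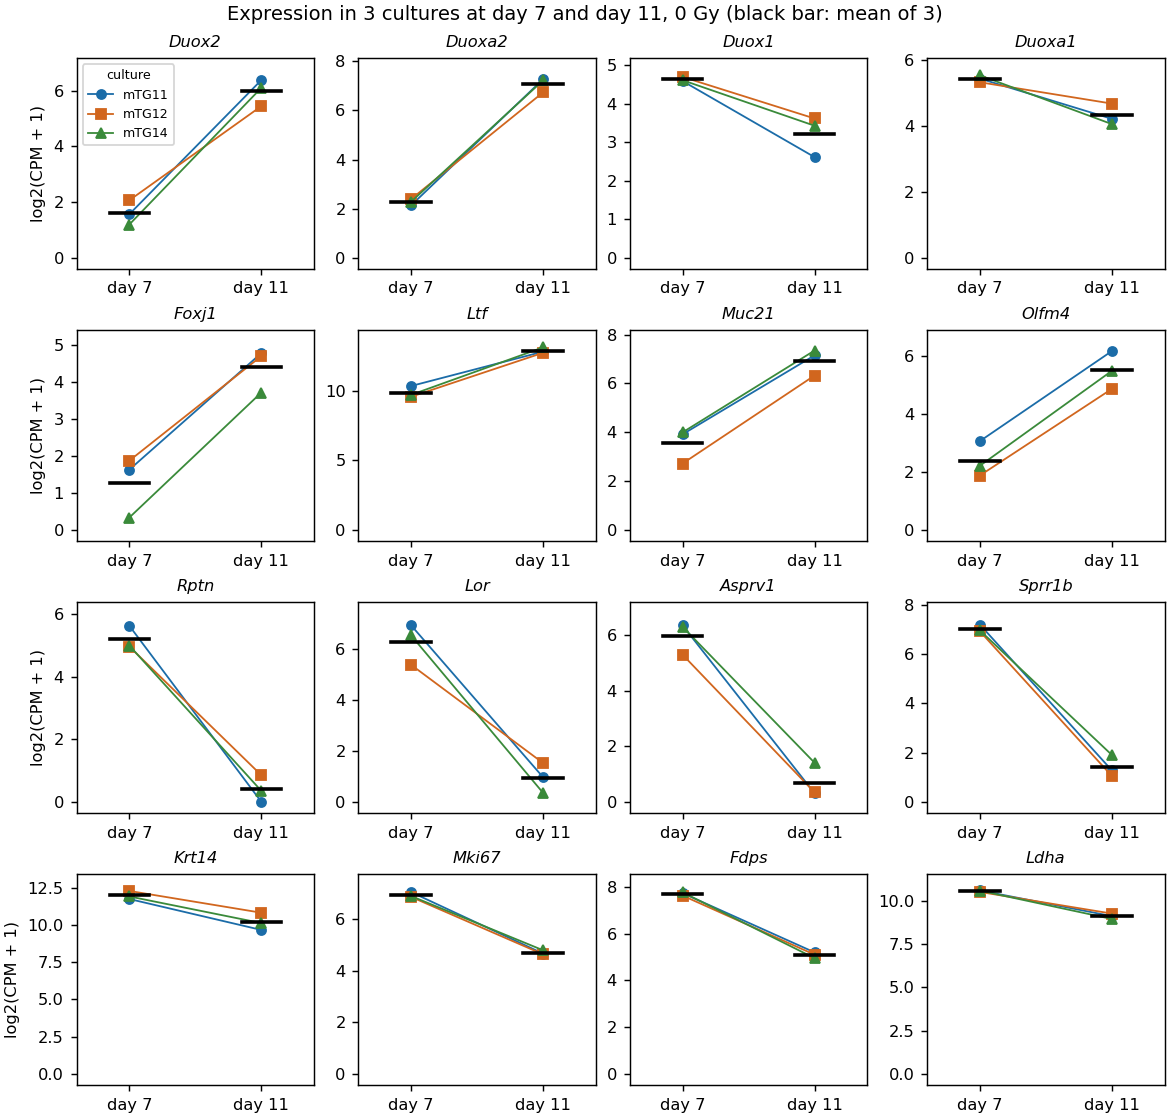
Expression of 16 genes in the unirradiated libraries, as log2(CPM + 1) on the vertical axis against day 7 and day 11, with 1 line per culture and a black bar for the mean of 3 libraries. Duox2, Duoxa2, Foxj1, Ltf, Muc21 and Olfm4 lie higher at day 11 in all 3 cultures, and Duox1, Duoxa1, the cornified genes, Krt14, Mki67, Fdps and Ldha lie lower.

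Where a gene averaged 10 CPM or more, the largest falls were those of the cornified envelope. Of the suprabasal and cornified list, 41 of 42 genes were tested, 30 fell and 1 rose (Krt80), with a median log2 fold change of -1.55. The 10 genes of these largest falls are all known from cornifying epithelium. Loricrin (Lor), the main protein of the envelope, was at 122, 40.8 and 92.1 CPM at day 7 and at 0.952, 1.88 and 0.275 CPM at day 11 (log2 fold change of -6.27 ± 0.36 (SE), adjusted p = 3.65e-08). Repetin (Rptn), an envelope protein that binds calcium, went from 48.5, 30.2 and 30.9 CPM to 0, 0.804 and 0.275 CPM (log2 fold change of -6.59 ± 0.37 (SE), adjusted p = 2.77e-08). Sprr1b, a small proline-rich envelope precursor, went from 146, 121 and 124 CPM to 1.43, 1.07 and 2.75 CPM (log2 fold change of -6.21 ± 0.23 (SE), adjusted p = 1.39e-09). At day 11 most of these values lay below or near the limit of 3 counts.

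The late cornified envelope gene Lce3f fell from 1063 counts summed over the 3 libraries of day 7 to 3 counts at day 11, a ratio of 356 with a counting interval from 122 to 1731. Its relatives Lce3e (log2 fold change -7.74), Lce3b (-7.19), Lce3c (-6.22) and Lce3a (-6.11) fell with it. Genes of this family are close copies, so the share of reads given to each of them is uncertain. Asprv1, the protease that trims filaggrin, went from 80.2, 38.2 and 77.5 CPM to 0.238, 0.268 and 1.65 CPM (log2 fold change of -6.49 ± 0.29 (SE), adjusted p = 5.44e-09). Calm4, a calmodulin-like protein of the epidermis, went from 242, 90.4 and 234 CPM to 2.74, 2.41 and 1.65 CPM (log2 fold change of -6.27 ± 0.30 (SE), adjusted p = 8.77e-09).

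Not every gene of the list fell as far. The stress keratins Krt16 (mean of 787 CPM at day 7 and 61.3 CPM at day 11) and Krt6b (1462 and 234 CPM) fell by 3.78 and 2.66 on the log2 scale. The mucosal keratin Krt13 fell by 1.03 and stayed at a mean of 2405 CPM. Its partner Krt4 had a log2 fold change of -0.58 that did not pass the test (adjusted p = 0.0729). The cell border proteins envoplakin (Evpl, log2 fold change 0.07) and periplakin (Ppl, 0.13) did not pass the test either. The 3 near-identical copies Sprr2a1, Sprr2a2 and Sprr2a3 fell by 0.82, 0.82 and 0.81, and reads may be split between them.

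Many of these genes sit side by side in the epidermal differentiation complex. Between the outermost list members on chromosome 3 (chr3:90434082-93306749, GRCm39), 62 genes were tested, of which 43 fell and 1 rose (Gm35439). Among the 42 genes of this interval that are not on the list, 28 fell. The kallikrein proteases, which cut desmosomal proteins during shedding, form a second such block on chromosome 7 (chr7:43339842-43500605), where 8 of 10 tested genes fell and 0 rose. Klk13 went from 220.0, 104 and 252 CPM to 6.67, 6.17 and 13.6 CPM, Klk14 from 302, 145 and 331 CPM to 13.1, 11.8 and 26.4 CPM, and Klk10 from 257, 133 and 288 CPM to 11.7, 20.1 and 21.4 CPM. Over the whole list of 30 proteases and inhibitors, 19 fell and 6 rose, with a median log2 fold change of -1.50, or -1.31 with the 1 gene at 0 counts at day 11 set to its bound. The transmembrane protease Tmprss11a fell by 3.37 and the inhibitor Spink5 by 2.23, while the channel-activating protease Prss8 rose by 2.04 on the log2 scale.

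AP-1 matches were found in the promoters of 19 of the 32 suprabasal and cornified genes with a promoter in the table (59.4%), against 7.01% of tested genes. A pair is shown, from genes among the 10 largest falls, with the matches in capitals.

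Lor, chr3:92083093-92083392, minus strand: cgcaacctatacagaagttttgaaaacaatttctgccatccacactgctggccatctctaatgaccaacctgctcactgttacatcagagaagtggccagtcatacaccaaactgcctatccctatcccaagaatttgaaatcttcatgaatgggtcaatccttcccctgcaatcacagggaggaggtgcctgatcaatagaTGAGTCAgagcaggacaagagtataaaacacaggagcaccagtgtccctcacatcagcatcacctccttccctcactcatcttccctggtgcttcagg
Sprr1b, chr3:92438730-92439029, minus strand: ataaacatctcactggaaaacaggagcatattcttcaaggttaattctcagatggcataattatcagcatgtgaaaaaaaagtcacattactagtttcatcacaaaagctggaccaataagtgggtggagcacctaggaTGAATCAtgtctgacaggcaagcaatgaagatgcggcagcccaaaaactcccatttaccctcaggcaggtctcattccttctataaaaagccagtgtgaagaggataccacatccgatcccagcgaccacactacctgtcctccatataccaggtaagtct

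Each of these windows held 1 match. Of 25 AP-1 and immediate early genes tested, 13 rose and 0 fell, with a median log2 fold change of 0.55. A link between their RNA levels and the cornified genes was not tested. Jun was at 171, 163 and 205 CPM at day 7 and at 562, 458 and 381 CPM at day 11 (log2 fold change of 1.36 ± 0.12 (SE), adjusted p = 2.69e-06). Fosb (log2 fold change 1.53), Fosl2 (0.94) and Atf3 (1.59) rose as well, the last with a call that was lost under DESeq2 and without culture mTG11.

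The contacts of the stratified epithelium fell too. Of 13 desmosome genes tested, 12 fell and 0 rose, with a median log2 fold change of -0.92. Desmoplakin (Dsp), which links desmosomes to keratin filaments, was at 869, 1062 and 725 CPM at day 7 and at 205, 411 and 326 CPM at day 11 (log2 fold change of -1.52 ± 0.16 (SE), adjusted p = 1.04e-05). Dsg1b, the desmoglein of upper layers, had 389 counts over the libraries of day 7 and 1 count over those of day 11, a ratio of 391 with a counting interval from 69.8 to 15497. Its estimated count was a whole number in 1 of the 7 unirradiated libraries that held any, so its reads may be shared with other genes. The interval, taken on rounded counts, does not cover such sharing. The desmoglein of lower layers, Dsg3, fell by only 0.72 on the log2 scale, and Dsg2, the desmoglein of simple epithelium, by 0.50.

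Basal genes fell by less than the cornified genes did. Of 18 tested, 11 fell and 1 rose, with a median log2 fold change of -0.60. Krt14 was at 3427, 4987 and 3858 CPM at day 7 and at 810.4, 1810 and 1116 CPM at day 11 (log2 fold change of -1.77 ± 0.13 (SE), adjusted p = 4.30e-07), and its partner Krt5 at 4465, 4839 and 4570 and 2182, 2947 and 2355 CPM (log2 fold change of -0.90 ± 0.08 (SE), adjusted p = 1.72e-06). Parts of the hemidesmosome and of the epithelial laminin fell with them, among them Itga6 (-0.96 on the log2 scale), Lamb3 (-0.99), Lama3 (-0.88) and Col17a1 (-0.73). Trp63, the master factor of basal cells, went from a mean of 130.3 ± 7.48 CPM (SD, n = 3) to 74.9 ± 18.0 CPM. Krt15 (log2 fold change -0.23), Krt17 (0.10) and Ngfr (-0.19) did not pass the test, and podoplanin (Pdpn) rose by 0.70.

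Tight junction genes went the other way, with 10 of 18 rising and 2 falling (median log2 fold change 0.47). The claudins Cldn3 (119, 58.0 and 75.7 CPM at day 7, 287, 178 and 221 CPM at day 11), Cldn4 (236, 220.3 and 268 and 627, 472 and 435 CPM) and Cldn23 (21.4, 6.89 and 15.4 and 70.9, 35.7 and 46.2 CPM) were higher at day 11 in every culture. Cldn8 and Cldn1 fell by 1.95 and 0.59 on the log2 scale. The scaffolds Tjp1, Tjp3 and cingulin (Cgn) rose by 0.51, 0.72 and 0.54.

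Markers of simple epithelium were divided, with 7 of 16 rising and 4 falling (2 falling without culture mTG11 and under DESeq2). Krt23 rose from 74.5, 39.6 and 51.5 CPM to 379, 152 and 237 CPM, Krt7 from 663, 377 and 473 CPM to 1383, 824 and 1092 CPM and Krt18 from 311, 289.9 and 255 CPM to 691, 497 and 439 CPM. Krt20 fell from 90.7, 114 and 84.1 CPM to 37.9, 61.4 and 33.3 CPM, and Krt19 from 1742, 795 and 1180 CPM to 831, 507 and 448 CPM.

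Of 32 secretory and mucosal genes tested, 15 rose and 8 fell, with a median log2 fold change of 0.37. Without the culture block 7 rose, and without culture mTG14 9 rose. Lactoferrin (Ltf), an iron-binding antimicrobial protein, went from 1318, 770.2 and 847 CPM at day 7 to 7350, 6937 and 9086 CPM at day 11 (log2 fold change of 3.02 ± 0.16 (SE), adjusted p = 1.64e-08). The membrane mucins rose together: Muc4 from 39.1, 15.4 and 28.9 CPM to 138, 75.1 and 137 CPM, Muc1 from 41.2, 15.9 and 21.9 CPM to 127, 43.4 and 71.8 CPM and Muc20 from 9.90, 1.06 and 3.86 CPM to 51.7, 18.8 and 30.0 CPM. The 3′ ends of Muc4 and Muc20 overlap on opposite strands, so reads may be shared between these genes. Lipocalin 2 (Lcn2) rose by 1.88 on the log2 scale and Chil1 by 1.40.

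Members of the same list that are known from airway club and goblet cells went both ways. Cyp2f2, an enzyme of club cells, rose by 1.00 on the log2 scale. The secretoglobin Scgb3a2 was at 37.0, 13.5 and 11.8 CPM at day 7 and at 9.29, 1.88 and 2.20 CPM at day 11 (log2 fold change of -2.21 ± 0.23 (SE), adjusted p = 1.03e-05). Scgb3a1 fell by 1.40 on the log2 scale, Agr2 by 1.01 and Spdef, the goblet cell factor, by 1.48. Muc5b and Bpifa1 had log2 fold changes of -0.37 and -0.17 that did not pass the test.

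Other genes among the 10 largest rises belong to no list. Muc21, a mucin anchored in the membrane, was at 14.1, 5.57 and 14.9 CPM at day 7 and at 141, 79.1 and 162 CPM at day 11 (log2 fold change of 3.47 ± 0.14 (SE), adjusted p = 3.13e-09). Olfm4, a glycoprotein of crypt and mucosal cells, went from 7.30, 2.65 and 3.60 CPM to 70.2, 27.9 and 43.4 CPM (log2 fold change of 3.39 ± 0.18 (SE), adjusted p = 1.64e-08). Wfdc12, a protease inhibitor with a WAP domain, went from 13.3, 11.9 and 19.6 CPM to 118, 115 and 128 CPM. The pantetheinases Vnn1 and Vnn3, which release cysteamine, rose by 3.50 and 3.42 on the log2 scale.

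**Figure D2:**
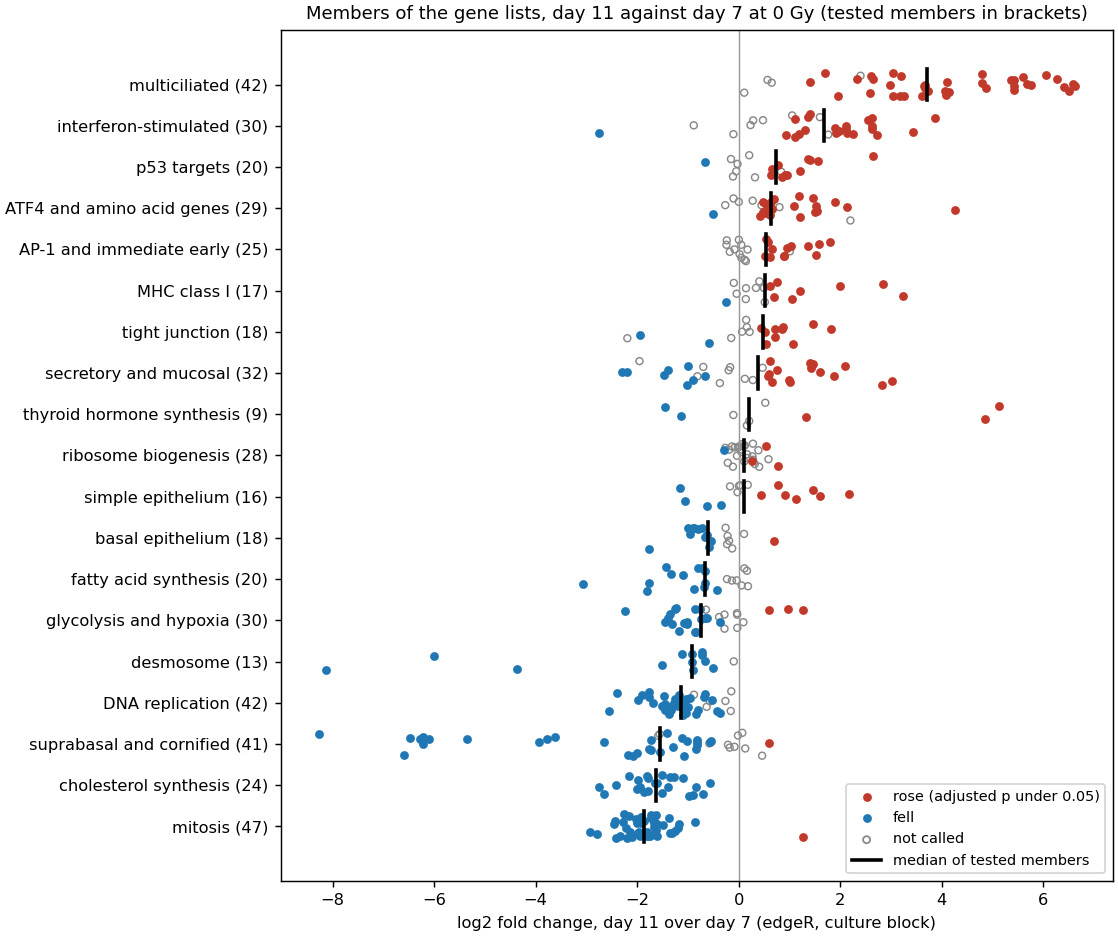
Log2 fold changes of day 11 over day 7 (horizontal axis) for the tested members of 19 gene lists (vertical axis), 1 point per gene, filled where the gene rose or fell and open where it was not called, with a black line at the median. The multiciliated list lies farthest to the right with a median of 3.70 (3.19 with genes at 0 counts set to their bound), and the mitosis, cholesterol synthesis and cornified lists lie to the left with medians of -1.86, -1.63 and -1.55.

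The list that rose most was that of multiciliated cells, which beat fluid over a mucosa with motile cilia. Of its 45 genes 42 were tested, 38 rose and 0 fell, with a median log2 fold change of 3.70, or 3.19 with the 10 members that had 0 counts at day 7 set to their lower bound. Many of these genes reached the count filter only through day 11 and so had to differ: of the 13 that pass it on the libraries of days 5 and 7 alone, 10 rose, with a median of 2.59. The summed level of all 45 members was 41.6, 39.9 and 28.2 CPM in the cultures at day 7 and 275, 274 and 145 CPM at day 11. The number of members with any count went from 26, 25 and 21 to 44, 44 and 42. Culture mTG14 was the lowest at both days.

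Foxj1, the factor that switches on the genes of motile cilia, was at 2.08, 2.65 and 0.257 CPM at day 7 and at 26.4, 24.9 and 12.1 CPM at day 11 (log2 fold change of 3.66 ± 0.30 (SE), adjusted p = 3.31e-06). Early genes of the multiciliated program were low but rose, with Mcidas at 5.48, 8.31 and 1.65 CPM and Ccno at 12.4, 9.38 and 4.95 CPM at day 11. Members at these low levels were named after their values were seen. The centriole amplification genes Deup1 and Ccdc78 had 2 counts and 1 count over all libraries of day 7 and 41 and 60 counts over those of day 11, ratios of 20.4 (counting interval 5.29 to 174) and 59.6 (10.3 to 2394).

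Structural parts of the cilium appeared with them. Tekt1, a filament of the axoneme, had 0 counts at day 7 and 39 counts at day 11, which makes it at least 12.9-fold higher against a floor of 3 counts over the group. By the same measure Ccdc113 was at least 12.6-fold, Fam183b at least 11.9-fold and Sntn, a protein of the ciliary tip, at least 11.3-fold higher. The axonemal dynein Dnah5 had 2 counts at day 7 and 43 at day 11. The members that did not pass the test include the regulatory factors Rfx2 (log2 fold change 0.65) and Rfx3 (0.11), which other cells also express, and Myb (0.57).

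The call count of this list depended on the setting, with 21 members rising under DESeq2 and 16 where a gene needed at least 10 counts in 3 libraries. None of the alternatives run called a member as falling. The X-box motif of RFX factors (GTTGCC, any 2 bases and GGNAAC, or GTTNCC followed by ATGGNAAC, both strands) was found in 2 of 38 promoters of the list (5.26%) and in 0.505% of all, and the forkhead motif TAAACA in 11 of 38 (28.9%) against 11.1%.

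**Figure D3:**
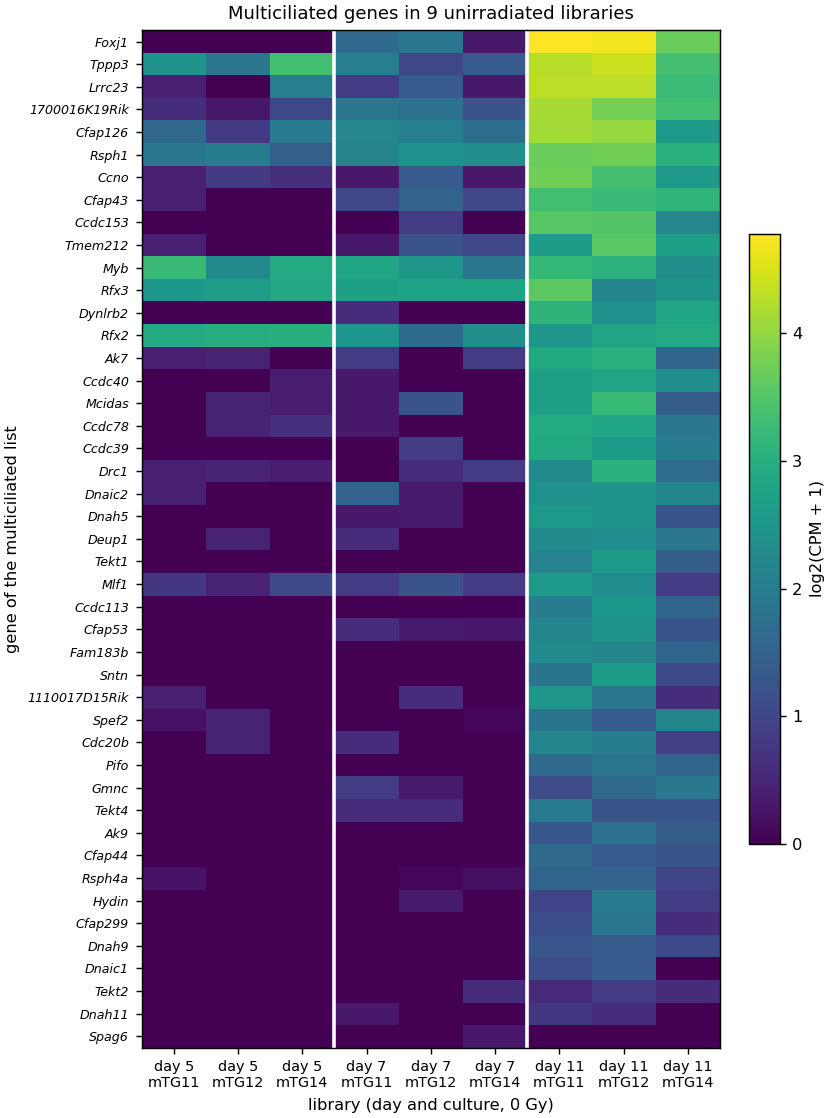
Levels of the 45 multiciliated genes (rows) in the 9 unirradiated libraries (columns, by day and culture) as log2(CPM + 1) in colour, with rows ordered by the mean at day 11. Most rows are dark at days 5 and 7 and lighter in all 3 cultures of day 11, with culture mTG14 darker than the other two.

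Proliferation genes fell almost without exception. Of 47 mitosis genes tested, 46 fell and 1 rose (Pttg1), with a median log2 fold change of -1.86. Mki67, the marker of cycling cells, was at 130.1, 114 and 117 CPM at day 7 and at 24.2, 23.7 and 26.5 CPM at day 11 (log2 fold change of -2.29 ± 0.12 (SE), adjusted p = 2.10e-08). Birc5, a subunit of the chromosomal passenger complex, went from 77.3, 68.2 and 68.4 CPM to 11.4, 9.25 and 10.3 CPM (log2 fold change of -2.78 ± 0.12 (SE), adjusted p = 5.44e-09), and the kinase Plk1 from 35.2, 29.7 and 26.0 CPM to 6.90, 4.56 and 5.50 CPM (log2 fold change of -2.41 ± 0.16 (SE), adjusted p = 1.60e-07). The 3 cultures lay close together at each day.

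Of 42 DNA replication genes, 36 fell and 0 rose, with a median log2 fold change of -1.14. Thymidine kinase (Tk1) went from 30.7, 22.4 and 26.5 CPM to 3.33, 4.96 and 5.50 CPM, the ribonucleotide reductase subunit Rrm2 from 30.0, 29.6 and 27.7 CPM to 5.95, 6.17 and 4.40 CPM and Uhrf1, which copies DNA methylation, from 49.2, 31.4 and 32.9 CPM to 9.64, 8.71 and 10.3 CPM. The helicase subunits Mcm2 to Mcm7 fell by between 1.04 and 1.77 on the log2 scale. Rrm1 (log2 fold change -0.26), Gins3 (-0.15) and Gins4 (-0.16) did not pass the test.

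Cell cycle motifs were counted in the promoters of both lists. The cell cycle homology region (CHR, TTTGAA or TTCGAA) together with a CCAAT box was found in 25 of 38 mitosis promoters (65.8%), against 8.53% of all. The E2F motif (TTTCCCGC or TTTGGCGC) was found in 12 of 35 replication promoters (34.3%), against 3.15% of all and 0 of the 38 mitosis promoters. All motifs were read on both strands. Counts of promoters, here and for the other lists, are of genes with a match in any of their windows. The CHR and the CCAAT box may thus lie in different windows of a gene. The promoter of Mki67 is shown with its CHR and CCAAT matches in capitals.

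Mki67, chr7:135716330-135716629, minus strand: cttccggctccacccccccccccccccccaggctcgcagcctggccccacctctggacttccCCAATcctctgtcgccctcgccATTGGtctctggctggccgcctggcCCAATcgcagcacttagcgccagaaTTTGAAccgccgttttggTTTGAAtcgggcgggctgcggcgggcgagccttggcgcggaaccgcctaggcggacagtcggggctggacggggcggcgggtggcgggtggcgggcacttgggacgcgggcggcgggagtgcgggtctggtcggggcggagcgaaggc

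This window held 2 CHR and 3 CCAAT matches, none of which overlapped.

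The cyclins and inhibitors of the G1 phase were mixed, with 4 of 19 rising and 4 falling. Without culture mTG11, or without its day 7 or day 11 library, 2 fell. The inhibitor Cdkn1a (p21) was at 223, 247 and 259 CPM at day 7 and at 446, 468 and 412 CPM at day 11 (log2 fold change of 0.86 ± 0.09 (SE), adjusted p = 1.39e-05), and Cdkn1b rose by 0.38 on the log2 scale. Cdk4 fell from 154, 152 and 171 CPM to 110.1, 125 and 103 CPM. Cyclin D2 (Ccnd2) rose by 0.47, while Ccnd1 (log2 fold change 0.17) and the senescence inhibitors Cdkn2a (0.14) and Cdkn2b (0.14) did not pass the test. Of 23 genes of senescence and its secreted factors, 6 rose (2 to 5 on leaving out any library or culture) and 7 fell.

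Cdkn1a belongs to the p53 targets, of which 12 of 20 rose and 1 fell (Perp, also a desmosome gene), with a median log2 fold change of 0.73. Plk2 went from 57.2, 69.2 and 79.8 CPM to 195, 170.2 and 163 CPM (log2 fold change of 1.36 ± 0.15 (SE), adjusted p = 1.49e-05). Sestrin 2 (Sesn2), which is also on the ATF4 list, went from 9.38, 8.48 and 13.6 CPM to 21.7, 28.2 and 23.1 CPM, and the nuclease Aen from a mean of 18.5 ± 0.842 CPM (SD, n = 3) to 35.9 ± 4.59 CPM. Mdm2, the ligase that degrades p53, rose by 0.78 and Ccng1 by 0.66 on the log2 scale. Bax (log2 fold change -0.05) and Bbc3 (0.32), which start apoptosis, did not pass the test.

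The genes of amino acid shortage that ATF4 controls rose in number, with 21 of 29 rising and 1 falling (median log2 fold change 0.63). Chac1, which degrades glutathione, was at 8.86, 7.69 and 9.26 CPM at day 7 and at 30.5, 39.9 and 44.8 CPM at day 11 (log2 fold change of 2.14 ± 0.16 (SE), adjusted p = 3.46e-07). Trib3 went from a mean of 13.0 ± 1.82 CPM (SD, n = 3) to 48.5 ± 8.85 CPM, Atf5 from 60.2, 52.2 and 40.9 CPM to 172, 118 and 159 CPM and Nupr1 from 300.1, 338 and 331 CPM to 1083, 787 and 937 CPM. Asparagine synthetase (Asns) rose by 1.09 and Atf4 itself by 0.62 on the log2 scale. The serine synthesis gene Psat1 (log2 fold change -0.10) and the transporter Slc38a2 (0.00) did not pass the test, and Shmt2 fell by 0.51. In the secretory pathway list, which holds the chaperones of the endoplasmic reticulum, 4 of 25 rose (1 to 3 on leaving out any library or culture, with 1 without culture mTG14 or either of its libraries) and 9 fell (4 to 7, with 4 without culture mTG11 or mTG14). Herpud1 rose by 0.90, the co-chaperone Dnajb9 by 0.57 and the chaperone Hspa5 by 0.34 on the log2 scale, while Pdia4 fell by 0.55. The call of Dnajb9 was lost in 9 of 18 alternatives, DESeq2 among them, and that of Pdia4 without culture mTG11. The motif TGATGNAAT, to which ATF4 binds, was in 5 of 25 promoters of the ATF4 list, against 0.666% of all.

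All genes on the list of cholesterol synthesis fell, 24 of 24, with a median log2 fold change of -1.63. The pathway runs from acetyl-CoA over mevalonate and squalene to cholesterol, and genes of each stretch took part. Fdps, which makes farnesyl diphosphate, was at 211, 196 and 216 CPM at day 7 and at 35.7, 33.2 and 29.9 CPM at day 11 (log2 fold change of -2.66 ± 0.10 (SE), adjusted p = 1.39e-09). Mevalonate kinase (Mvk) went from 69.2, 44.8 and 63.4 CPM to 10.8, 13.5 and 8.52 CPM (log2 fold change of -2.43 ± 0.18 (SE), adjusted p = 4.39e-07), lanosterol demethylase (Cyp51) from 299, 258 and 249 CPM to 64.3, 48.0 and 68.7 CPM and the sterol reductase Tm7sf2 from 29.3, 17.0 and 23.8 CPM to 3.57, 3.49 and 3.44 CPM. Hmgcs1, an early enzyme of the pathway, fell by 1.99 on the log2 scale. The smallest fall was that of Sc5d (log2 fold change -0.56), which acts near the end of the pathway. The factor Srebf2, which is controlled by sterols, fell by 0.91. The summed level of the list was between 2563 and 3029 CPM at day 7 and between 989 and 1021 CPM at day 11.

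A CCAAT box was found in all 16 cholesterol synthesis promoters of the table, against 42.6% of tested genes, and the sterol response motif TCACNCCAC in 1 of 16 (6.25%) against 1.40%. The window of Mvk is shown because it held the box 5 times on either strand (capitals).

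Mvk, chr5:114444019-114444318, plus strand: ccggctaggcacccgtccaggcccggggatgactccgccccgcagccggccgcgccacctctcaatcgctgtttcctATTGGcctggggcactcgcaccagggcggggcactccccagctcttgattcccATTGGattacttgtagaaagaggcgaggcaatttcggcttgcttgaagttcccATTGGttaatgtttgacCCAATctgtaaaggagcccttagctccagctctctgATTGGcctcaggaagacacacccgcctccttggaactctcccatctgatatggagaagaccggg

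Fatty acid synthesis fell in 13 of 20 genes and rose in 0, with a median log2 fold change of -0.67. The desaturases Scd1 and Scd2 went from 136, 128 and 134 to 42.1, 32.9 and 38.8 CPM and from 1192, 987 and 1096 to 349.6, 306 and 304 CPM. Elovl4, which makes the very long chains of the epidermal barrier, went from 40.6, 24.6 and 34.5 CPM to 3.33, 5.97 and 2.47 CPM (log2 fold change of -3.08 ± 0.28 (SE), adjusted p = 2.72e-06). The synthase Fasn fell by 0.89 on the log2 scale and its factor Srebf1 by 0.81.

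Of 30 glycolysis and hypoxia genes, 19 fell and 3 rose, with a median log2 fold change of -0.75. The lactate exporter Slc16a3 was at 67.2, 104 and 88.3 CPM at day 7 and at 14.3, 23.9 and 16.8 CPM at day 11 (log2 fold change of -2.25 ± 0.13 (SE), adjusted p = 3.65e-08). Lactate dehydrogenase A (Ldha) went from 1556, 1464 and 1543 CPM to 555, 615 and 495 CPM (log2 fold change of -1.46 ± 0.08 (SE), adjusted p = 2.80e-08), Pgk1 from 301, 359.9 and 343 CPM to 127, 146 and 121 CPM and Pgam1 from 251, 298 and 288 CPM to 97.7, 126 and 95.0 CPM. The glucose transporter Slc2a1 fell by 1.26 on the log2 scale. The members that rose were Ldhb (0.60), which is the other lactate dehydrogenase, Vegfa (0.97) and adrenomedullin (Adm, 1.26), both secreted and known to respond to hypoxia. Car9 (log2 fold change -0.39) and Ankrd37 (-0.65), which also respond to hypoxia, did not pass the test.

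The nuclear genes of the respiratory chain fell by less, 19 of 37 with 1 rising, and a median log2 fold change of -0.26, while 10 fell without culture mTG14 and 12 without its day 11 library. Cox5b went from 147, 138 and 134 CPM to 86.2, 73.2 and 73.1 CPM and Atp5b from 656, 594 and 594 CPM to 402, 453 and 405 CPM. The member that rose was Ndufa4 (0.47 on the log2 scale). Of the 13 genes encoded in mitochondrial DNA, 4 rose and 1 fell, with COX1 at 2371, 2455 and 2471 CPM at day 7 and 3499, 3835 and 3791 CPM at day 11 (log2 fold change of 0.60 ± 0.08 (SE), adjusted p = 4.64e-05) and ND3 at 495, 464 and 406 and 349, 386 and 324 CPM. Without the day 11 library of mTG12, or without the day 7 library of mTG14, 2 of them rose.

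Interferon-stimulated genes rose, 21 of 30 with 1 falling (Cxcl10), and a median log2 fold change of 1.68. These genes answer to type I interferon and to foreign nucleic acid in the cell. Ifi44 was at 7.03, 3.45 and 3.60 CPM at day 7 and at 81.2, 24.7 and 48.7 CPM at day 11 (log2 fold change of 3.44 ± 0.21 (SE), adjusted p = 5.90e-08). The factor Irf7 went from 16.4, 7.42 and 6.43 CPM to 94.3, 31.1 and 76.7 CPM (log2 fold change of 2.73 ± 0.23 (SE), adjusted p = 1.13e-06), Oasl2 from 11.7, 5.04 and 3.09 CPM to 60.8, 17.2 and 45.2 CPM and Ifit3b from 3.26, 2.39 and 2.83 CPM to 28.7, 8.31 and 16.4 CPM. At day 11 culture mTG11 was the highest and culture mTG12 the lowest in each of these genes. The summed level of the list ranged from 160.3 to 288 CPM at day 7 and from 324 to 1030 CPM at day 11. Stat2 (log2 fold change 0.48), which carries the interferon signal, did not pass the test, while its partner Irf9 rose by 0.93.

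The core of the interferon response element (GAAA, any 2 bases and GAAA again, both strands) was found in 15 of 22 promoters of the list (68.2%), against 3.64% of all. The promoter of Ifit3b held it 2 times (capitals).

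Ifit3b, chr19:34607707-34608006, plus strand: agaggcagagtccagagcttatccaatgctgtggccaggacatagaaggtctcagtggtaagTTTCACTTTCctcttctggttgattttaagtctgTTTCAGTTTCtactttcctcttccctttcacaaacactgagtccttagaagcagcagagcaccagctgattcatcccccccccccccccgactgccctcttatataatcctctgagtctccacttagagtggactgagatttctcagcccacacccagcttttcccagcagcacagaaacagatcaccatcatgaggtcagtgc

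Genes of antigen presentation on MHC class I rose in 8 of 17 cases (5 without culture mTG11) and fell in 1, with a median log2 fold change of 0.51. B2m, the light chain, went from 114, 84.9 and 104 CPM to 304, 179.9 and 220.3 CPM (log2 fold change of 1.20 ± 0.12 (SE), adjusted p = 7.57e-06), H2-D1 from 198, 156 and 166 CPM to 340.2, 218 and 289 CPM and the immunoproteasome subunit Psmb8 from a mean of 6.88 ± 2.54 CPM (SD, n = 3) to 27.3 ± 6.82 CPM. Of 26 chemokines and cytokines 6 rose and 6 fell, and 3 rose and 3 fell without culture mTG11, while 3 fell also without its day 11 library or the day 7 library of mTG14. Ccl2 fell from 18.1, 36.8 and 23.4 CPM to 1.19, 4.29 and 3.57 CPM (log2 fold change of -3.14 ± 0.22 (SE), adjusted p = 2.16e-07), and Il1a rose from 12.5, 21.2 and 18.3 CPM to 55.9, 52.5 and 62.7 CPM (log2 fold change of 1.73 ± 0.18 (SE), adjusted p = 8.14e-06).

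Signalling lists showed no common direction. Of the growth factor genes 6 of 24 rose and 3 fell. Errfi1, an inhibitor of the EGF receptor, rose from 21.6, 19.1 and 27.3 CPM to 103, 62.7 and 82.2 CPM (log2 fold change of 1.85 ± 0.17 (SE), adjusted p = 2.49e-06), and the ligands Hbegf and Ereg rose by 0.89 and 0.96 on the log2 scale, while Areg fell by 0.75. In the TGF-β list 6 of 25 rose (3 without culture mTG14) and 7 fell. Tgfbi was at 122, 329 and 194 CPM at day 7 and at 22.1, 63.5 and 31.5 CPM at day 11 (log2 fold change of -2.47 ± 0.13 (SE), adjusted p = 1.29e-08), whereas Ccn1 and Ccn2, which also answer to YAP, rose by 1.71 and 1.46.

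Of the Notch genes 4 of 13 fell and 0 rose, with the ligand Jag1 falling by 0.77 and the target Hes1 by 0.64 on the log2 scale. Of the Wnt and stem cell genes 2 of 18 rose and 5 fell. Cd44 fell from 354, 441 and 367 CPM to 150.2, 199.7 and 151 CPM, and Ly6a (Sca-1) rose from 665, 568 and 600.4 CPM to 1591, 1201 and 1217 CPM. Of 17 mesenchymal transition genes 3 rose and 3 fell, with S100a4 going from 112, 121 and 107 CPM to 12.4, 14.2 and 12.4 CPM (log2 fold change of -3.13 ± 0.11 (SE), adjusted p = 1.05e-09).

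Among 37 epithelial fate factors 8 rose and 8 fell, and under DESeq2 5 rose. On leaving out a culture or library, 4 rose without culture mTG12 and 5 without its day 7 library, without culture mTG14 or without either library of mTG14. Hopx was at 253, 139 and 278 CPM at day 7 and at 638, 407 and 666 CPM at day 11 (log2 fold change of 1.37 ± 0.14 (SE), adjusted p = 7.15e-06), and Ovol1 and Elf3 rose by 1.15 and 0.78 on the log2 scale. Elf5, Sox15, Barx2 and Pitx1 fell by 1.21, 1.16, 1.00 and 0.86. Sox2 (log2 fold change -0.26), Sox9 (-0.02), Klf4 (0.02) and Foxa1 (0.19) did not pass the test.

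Glutathione and NRF2 genes rose in 12 of 30 cases (7 without culture mTG11 or its day 7 library) and fell in 7 (4 without culture mTG14). Gsto1, an omega class glutathione transferase and 1 of the 5 RNAs with the highest mean, went from 6944, 5822 and 6503 CPM to 18089, 13287 and 16338 CPM (log2 fold change of 1.30 ± 0.13 (SE), adjusted p = 5.05e-06). Gsta3 rose by 1.78 and Gsta1 fell by 2.89 on the log2 scale, and members of this family are alike in sequence. The other RNAs of the highest mean were ribosomal: Rn18s-rs5 and LOC118568312 did not pass the test (adjusted p = 0.3 and 0.433), and the mitochondrial mt-Rnr1 and mt-Rnr2 rose by 0.45 and 0.45, of which mt-Rnr2 overlapped between the days. Of 48 ribosomal protein genes 12 rose and 2 fell, with log2 fold changes between -0.55 and 0.48 among those called, and the median was 0.15. Fewer of them rose without 1 library or culture: 3 without culture mTG14, 5 without the day 11 library of mTG12 or the day 7 library of mTG11, and 6 without culture mTG12 or its day 7 library.

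Markers of other cells were followed because the gland also holds fibroblasts, vessels, immune cells, C cells and neighbouring muscle and fat. Of 20 fibroblast markers 18 were tested, 8 fell and 1 rose, and their summed level was between 200.0 and 411 CPM at day 7 and between 147 and 235 CPM at day 11. Col1a1 went from 4.95, 25.4 and 29.1 CPM to 1.67, 10.7 and 4.40 CPM and lost its call without the culture block, as did vimentin (Vim). Without the block 3 fibroblast markers fell, and without culture mTG14 2 fell. The rise of Postn rested on culture mTG14 (4.05, 2.41 and 52.0 CPM at day 11) and was lost without it. Acta2, the actin of smooth muscle, was also highest in that culture, with 10.00, 14.2 and 88.0 CPM at day 11. The falling Vim (8.34, 15.1 and 52.2 CPM at day 7, 2.38, 8.85 and 5.50 CPM at day 11) and S100a4 of the mesenchymal list stand beside this change in fibroblast markers, whose part in them was not tested.

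Muscle and fat markers fell in 6 of 10 tested cases and rose in 1 (Pparg), and their summed level went from between 51.9 and 125 CPM to between 14.5 and 26.0 CPM. Des was at 9.38, 28.9 and 31.6 CPM at day 7 and at 0.476, 4.29 and 4.40 CPM at day 11. Fabp4, the fat cell marker, was at 0 counts at day 11. Of 18 immune markers 8 were tested, 3 rose and 3 fell, with summed levels of 169 to 317 CPM at day 7 and 197 to 309 CPM at day 11. The members that fell include S100a8 and S100a9, which keratinocytes also make, from 122, 47.2 and 68.7 CPM to 2.14, 8.04 and 5.22 CPM for S100a9. Cd68 and Cd14 rose by 1.26 and 1.01 on the log2 scale, while Cd74 and Lyz2 did not pass the test. The part of immune cells in the interferon and antigen presentation genes was not tested. Endothelial markers (3 of 14 tested) and parathyroid and thymus markers (4 of 10) held no gene that passed the test, and of the C cell markers (3 of 13) Calcb fell from 22.4, 38.4 and 18.3 CPM to 4.76, 2.41 and 2.20 CPM.

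The step from day 7 to day 11 was then compared with the step from day 5 to day 7, which share the libraries of day 7. In the earlier step 4607 genes (25.0%) were called. The later change minus the earlier change was tested directly and differed from 0 in 2287 genes (12.4%), more positive in 597 (3.24%) and more negative in 1690 (9.16%). The later step covers more days than the earlier, and the changes were not scaled to time. A gene that changed at a constant daily rate would therefore also give a difference. Without TMM factors the split was 878 more positive and 1138 more negative, and the median difference of all genes moved from -0.08 to 0.07. With this other scaling 21 cholesterol synthesis, 21 glycolysis and hypoxia and 25 cornified genes were more negative and 21 ribosome biogenesis genes more positive, beside the counts given next.

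Some lists kept their direction and others turned. Mitosis genes fell in both steps, 39 in the earlier and 46 in the later, with medians of -0.80 and -1.86. By the direct test 32 of 47 were more negative in the later step and 1 more positive. Of the glycolysis and hypoxia genes 20 rose and 1 fell before day 7, and 22 of 30 were more negative in the later step. Slc16a3 had log2 fold changes of 3.05 and then -2.25, a difference of -5.30 ± 0.22 (SE, adjusted p = 8.03e-09). Krt20, the keratin of surface cells in gut and bladder, rose by 4.84 and then fell by 1.15 (difference -5.99 ± 0.24, adjusted p = 8.03e-09).

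Cholesterol synthesis was balanced before day 7, with 4 genes rising and 4 falling, and 22 of 24 were more negative in the later step. Of the cornified list 18 rose and 12 fell in the earlier step, and 29 of 41 were more negative in the later. Lce3f had a log2 fold change of -0.07 between days 5 and 7 and Lor one of -0.36, neither of which passed the test. Asprv1 rose by 1.03 before it fell. Sprr1b fell in both steps, by 2.28 and then by 6.21.

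Ribosome biogenesis genes showed the reverse course. In the earlier step 26 of 28 fell, and in the later step 3 rose and 1 fell, so that 18 were more positive. Rrp9 had a difference of 1.99 ± 0.28 (adjusted p = 3.45e-04) and Gnl3 one of 1.44 ± 0.17. The p53 targets fell in 7 and rose in 2 cases before day 7 and rose in 12 after it. Of 42 multiciliated genes 3 rose in the earlier step. By the direct test only 2 of them were more positive in the later step and 0 more negative. Interferon-stimulated genes rose in both steps, 21 in each, with medians of 2.58 and 1.68. The summed level of these 30 genes was 58.2 to 68.5 CPM at day 5, so many of them were near the limit of 3 counts there. In the earlier step 16 of 18 tight junction, 19 of 32 secretory and mucosal and 15 of 16 simple epithelium genes rose. These are more than rose in the later step. Of these lists 8, 12 and 11 genes were more negative in the later step and 0 more positive.

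The 5 genes with the most positive difference were Cyp2b10, Cryab, Ovol1, Mcam and Gsto2. Cyp2b10, a cytochrome P450 induced by xenobiotics, was at 7.70, 10.3 and 6.27 CPM at day 5, 2.87, 5.57 and 5.49 CPM at day 7 and 35.0, 30.9 and 37.5 CPM at day 11 (difference 3.51 ± 0.48, adjusted p = 2.59e-04). The small heat shock protein Cryab was at 15.5, 35.0 and 33.1, 4.43, 6.89 and 12.9 and 21.9, 30.0 and 29.4 CPM, a fall followed by a return. The 5 with the most negative difference were Lce3f, Lce3e, Lce3b, Asprv1 and Lce3a.

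**Figure D4:**
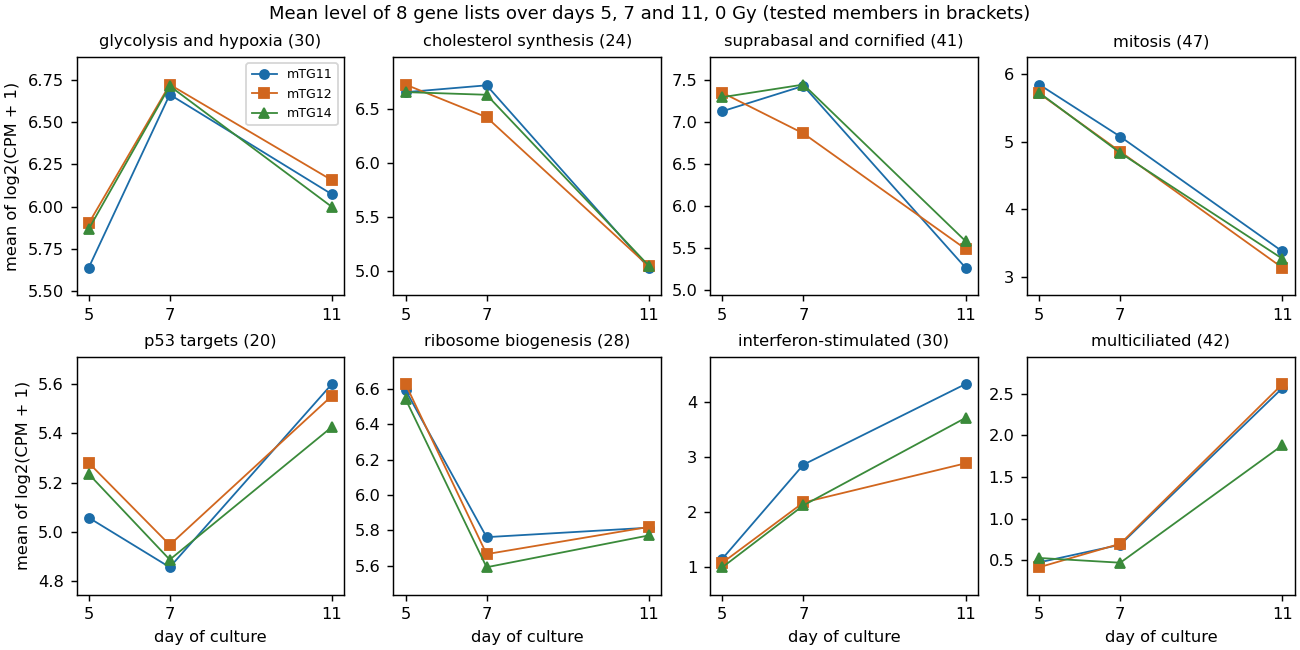
Mean of log2(CPM + 1) over the tested members of 8 gene lists (vertical axes, each with its own range) against day 5, 7 and 11 (horizontal axis), with 1 line per culture. Glycolysis and hypoxia genes peak at day 7, cholesterol synthesis and cornified genes drop after day 7, mitosis genes fall throughout, ribosome biogenesis genes fall before day 7 only, and multiciliated genes rise after day 7.

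Finally, the step from day 7 to day 11 was set beside the same step in irradiated organoids, in a fit of 24 libraries with a term for the difference between doses, tested on 21928 genes. The 3 doses share the 6 unirradiated libraries. Irradiated libraries of day 7 were also taken after the exposure, so a differing step can rest on day 7, day 11 or both. Which of these days differed was not tested. The step differed from that at 0 Gy in 2 genes at 2 Gy (0.00912%), in 130 genes at 4 Gy (0.593%) and in 1153 genes at 7 Gy (5.26%), of which 791 (3.61%) were more positive and 362 (1.65%) more negative. Without culture as a block, edgeR called 660 genes at 7 Gy, 24 at 4 Gy and 0 at 2 Gy, where 1132 genes had an unadjusted p under 0.05 and DESeq2 with the block called 4. Proliferation genes differed in most members: 46 of 47 mitosis genes and 24 of 42 replication genes were more positive at 7 Gy, and the median log2 fold change of the mitosis list was -1.86 at 0 Gy, -1.79 at 2 Gy, -0.92 at 4 Gy and 0.02 at 7 Gy.

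Cholesterol synthesis (20 of 24 genes), glycolysis and hypoxia (21 of 30) and the cornified list (17 of 42 tested in this fit) were more positive at 7 Gy as well. Their medians went from -1.63, -0.75 and -1.56 at 0 Gy to -0.45, 0.03 and -0.78 at 7 Gy. The p53 targets were more negative in 14 of 20 cases, with medians of 0.73 and -0.34, and the interferon-stimulated genes in 7 of 30, with medians of 1.71 and 0.75. The summed level of the 45 multiciliated genes, which needs no fitted fold change, was 33.8, 56.5 and 34.4 CPM at day 7 and 73.1, 114.3 and 56.0 CPM at day 11 after 7 Gy, so that each culture stayed below its own day 11 level at 0 Gy. Of the 44 multiciliated genes tested in this fit, 5 were more negative at 7 Gy and 0 more positive.

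**Figure D5:**
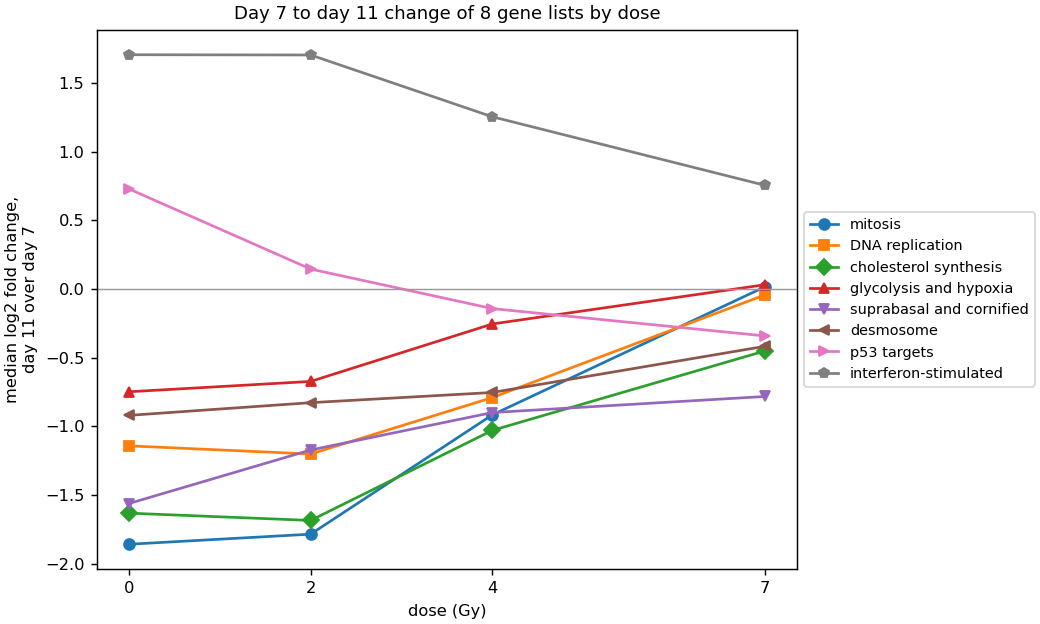
Median log2 fold change of day 11 over day 7 (vertical axis) for 8 gene lists against the dose in Gy (horizontal axis), from the fit of 24 libraries. The interferon-stimulated median goes from 1.71 at 0 Gy to 0.75 at 7 Gy, and at 7 Gy the mitosis, replication and glycolysis lists lie near 0.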

How the data were processed

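Organoid RNA of 9 groups (day 5 at 0 Gy, and days 7 and 11 at 0, 2, 4 and 7 Gy, 3 libraries each) was made into Smart3SEQ libraries and sequenced as single reads. The deposited table holds estimated counts per gene, which the authors made from reads aligned to mouse genome build GRCm39. The submitters' processing notes name STAR and edgeR, without versions or roles. The tool that counted reads, the annotation, the handling of molecular identifiers and the use of strand are not given in the sources used here. Without known strand use, reads of overlapping genes on opposite strands may be mixed, and close copies may share reads. The table lists 50559 genes, of which 15491 had no count in any library.

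Estimated counts were rounded to whole numbers for tests. A gene entered the test where its counts in the 9 unirradiated libraries came to 10 or more together, and edgeR was used (version 4.0.16, R 4.3.3) with TMM factors, a term for each day, culture as a block and the quasi-likelihood F-test with Benjamini-Hochberg adjustment, at an adjusted p under 0.05. The same fit gave the difference between both steps, and a fit of 24 libraries gave the differences between doses. All tests were 2-sided. DESeq2 (version 1.42.0) was an alternative, beside changes of block, scaling, filter and libraries. The scripts were tested on simulated counts. CPM are the deposited counts per 1000000 counts of the library, without TMM factors. Lists were described by counts of members called and by medians, without set tests.

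Culture identifiers stand in the column names, and the labels' mouse numbers were not matched to them. The series text gives 4 mice, whereas the study's methods give 3 animals for the sequenced organoids and each group has 3 libraries. Deviations of day 7 and day 11 libraries from their group means correlated across genes at a mean r of 0.130 (range 0.0967 to 0.151, 3 pairs) within a culture and of -0.0651 (6 pairs) between cultures. No 2 libraries of a group were alike within sampling noise, as the lowest chi-square per degree of freedom was 4.29 over 6 pairs.

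The comparison and the 41 gene lists were chosen with earlier results of these data known. Named genes were the 10 largest rises and the 10 largest falls among genes called, with a mean of at least 10 CPM and without overlap between the days, up to 4 genes called per list at that level, all thyroid genes, the 5 most abundant genes and the 5 at each end of the difference between steps. Other genes were named after their values were seen, and some genes of the rule are not reported here. Positions are those of GENCODE vM39 (GRCm39), in which 92.6% of the tested symbols were found. Promoters are from RefSeq, and those of chromosome 18 were left out.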

Additional observations from a re-analysis of the deposited data

Results flagged for a closer look

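The step from day 7 to day 11 differed between irradiated and unirradiated organoids by a test of the difference itself in 2 genes at 2 Gy, 130 genes at 4 Gy and 1153 genes at 7 Gy. All values below are the log2 change of an irradiated group minus that at 0 Gy, with adjusted p from edgeR.

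Genes of the cornified envelope and of the uppermost epidermal layers fell less at 7 Gy than at 0 Gy. The difference was 5.90 for Lce3f (adjusted p = 0.00148), 5.92 for Lce3e (adjusted p = 0.00119), 4.67 for Lce3c (adjusted p = 0.00168) and 4.36 for Lce3b (adjusted p = 0.0173). It was 5.63 for Rptn, a filament-binding protein of the envelope (adjusted p = 0.00146), 5.00 for Lor, a main envelope protein (adjusted p = 0.00220), and 3.21 for Sprr1b, a small envelope protein (adjusted p = 0.0215). Dsg1b, a desmosomal cadherin, differed by 5.60 (adjusted p = 0.00790). Asprv1, a protease that processes filaggrin, differed by 3.90 at 4 Gy (adjusted p = 0.0412) and by 5.93 at 7 Gy (adjusted p = 1.1e-05). The changes at 0 Gy reach low counts at day 11, so the size of these differences rests on few counts, with standard errors of 0.74 to 1.28 at 7 Gy.

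Duox2 rose less at 7 Gy, with a difference of -1.72 (SE 0.48, adjusted p = 0.0323), and so did Ifi44, an interferon-stimulated gene, with -1.92 (SE 0.40, adjusted p = 0.00378). Both rises were still called at 7 Gy, at 3.12 for Duox2 and at 1.52 for Ifi44.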

How the results depend on the processing

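The count of genes called between day 11 and day 7 was 4575, and it lay between 3914 and 4898 in 8 of the alternatives on filter, scaling, depth, libraries and block. DESeq2 called 2505. With 1 library or 1 culture left out it lay between 2668 and 3628, with 2668 without culture mTG14 and 2820 without culture mTG11. Of the 159 named genes that were called, 141 kept their call under each alternative that tested them and 18 lost it under at least 1. There were 18 alternatives, of which the one without ribosomal and mitochondrial genes tested no such gene, and 0 of these genes changed direction. The 18 include Atf3, Dusp4, Vim, Col1a1, Csf3, Rbl1 and both mitochondrial ribosomal RNAs.

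The genes whose step differed from that of days 5 to 7 numbered 2287, and 1035 with DESeq2. Without TMM factors 878 genes were more positive and 1138 more negative, against 597 and 1690. With 1 library left out they numbered 1117 to 2155, the lowest being 1117, 1480 and 1161 without the day 7 library of mTG11, mTG12 and mTG14. Differences by dose were counted in 1656 genes at 7 Gy, 629 at 4 Gy and 164 at 2 Gy with no filter beyond 1 count, and in 1 gene at 2 Gy without TMM factors. DESeq2 called 4 genes at 2 Gy. With 1 unirradiated library left out, the counts lay between 779 and 1080 at 7 Gy and between 42 and 142 at 4 Gy, with 45 and 78 without the day 11 libraries of mTG11 and mTG14 and 42 and 75 without their day 7 libraries. At 2 Gy they lay between 0 and 3, where the edgeR fits with 0 calls had 1182 to 1441 genes at an unadjusted p under 0.05.

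The replicate block, here the culture, was left out in 1 alternative. Without it 3914 genes were called between day 11 and day 7, 1716 between the steps, and 660, 24 and 0 by dose at 7, 4 and 2 Gy (1132 genes at an unadjusted p under 0.05 at 2 Gy). Depth limited genes near 3 counts per library, among them most thyroid genes.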

Other observations

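The gene families below hold members that rose or fell between day 7 and day 11 at 0 Gy. They were chosen after their values were seen, so the counts of members called by edgeR are a description.

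Of 52 histone genes tested, which code for the proteins that package newly made DNA and for linker histones, 26 fell and 0 rose, with a median log2 fold change of -2.41. H2ac23 fell from 191.7 to 26.6 CPM on average (log2 fold change -2.83), H2ac11 from 48.4 to 4.89 CPM (-3.29) and the linker histone H1f5 from 24.8 to 4.18 CPM (-2.56). Many of these genes are close copies, and most of their RNAs lack the poly(A) tail that the library method primes on. Of 21 tubulin genes, the subunits of microtubules, 10 fell and 0 rose, with a median of -0.31. Tubb5 went from 449.7 to 249.3 CPM, Tuba1b from 219.4 to 119.1 CPM and Tubb6 from 53.2 to 13.4 CPM.

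The metallothioneins, small proteins that bind zinc and copper, fell in 3 of 3 cases, with log2 fold changes of -1.49 for Mt1, -1.33 for Mt2 and -4.46 for Mt4. Of 6 genes of iron storage and uptake, both ferritin chains rose: Fth1 went from 1417 to 4403 CPM (log2 fold change 1.65) and Ftl1 from 454.2 to 802.5 CPM (0.81). Tfrc, the transferrin receptor that takes up iron, fell by 1.00 on the log2 scale.

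Of 6 genes of sterol efflux and the liver X receptor, 3 rose and 1 fell. The rises were those of the efflux transporters Abca1 (log2 fold change 1.55) and Abcg1 (1.26) and of the ubiquitin ligase Mylip (0.43), and Lpcat3 fell by 0.76. In cytochrome P450 families 2 to 4, whose members oxidise drugs, steroids and fatty acids, 10 of 28 genes rose and 4 fell, with a median of 0.70. Cyp2f2, an enzyme of airway secretory cells, went from 494.5 to 893.9 CPM, Cyp2a5 from 29.0 to 83.9 CPM and Cyp2b10 from 4.64 to 34.5 CPM, whereas Cyp4f39 fell from 64.2 to 20.6 CPM.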
